A study of Mus musculus with 4 samples.

Results

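Embryonic stem cells (ESC) were set against mouse embryonic fibroblasts (MEF), on the arrays titled ESC and MEF, which are 2 of the 4 samples of the series. ESC are pluripotent cells derived from the early mouse embryo, and MEF are connective tissue cells of a later embryo. The ESC had the 129SV background and were cultured in serum medium with LIF, the cytokine that keeps mouse stem cells from differentiating. The MEF had the C57BL/6 background and were cultured in serum medium for which no LIF is given. The labels name no genetic change and no feeder layer for either culture, and give no passage, sex or embryonic day. The other arrays of the series carried the induced pluripotent stem cell lines iPS-OSH and iPS-J. Total RNA was amplified, labelled with the dye Cy3 and hybridised to 1-colour Agilent arrays of 62976 spots.

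Each population was measured once, so differences are described by their size, with no test and no p-value. Strain, medium and scan session differed together with the cell type (MEF was scanned in session 1 and ESC in session 3, on 1 slide) and cannot be told apart from it. Intensities are the scanner software's processed signals, and differences are ESC minus MEF in log2 units after each array was scaled to its 75th percentile, which was 1307 for ESC and 1765 for MEF. Of 59305 spots that were not controls, 78.4% in ESC and 81.7% in MEF were called well above background. Probes printed 10 times gave the difference a median technical SD of 0.20, which widened to 0.36 at signals of 128 to 256 and to 0.88 below 64. This SD covers spot noise alone and leaves out the spread between cultures. A gene well above background on 1 array alone has a lower bound, set by the dimmest detected probe of the other array or by the gene's own dim signal, whichever was brighter. The software had also divided the ESC signals by a surface fitted across the array, a step that the MEF signals lack. The ratio of processed to background-subtracted signal ran between 0.853 and 1.53 on the ESC array (percentiles 1 and 99) and was 1 on the MEF array. Applying the surface to MEF too moved 29.2% of the genes by more than 0.2 log2 units.

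In mouse ESC a circuit of transcription factors around Oct4 (Pou5f1), Sox2 and Nanog sustains self-renewal, and LIF feeds into it through the kinases of the JAK family and STAT3. Fibroblasts build and remodel connective tissue. They secrete fibrillar collagens, pull on them through contractile actin fibres anchored at integrins, and respond to transforming growth factor beta. Between these states lies the transition between an epithelial and a mesenchymal organisation, in which E-cadherin junctions and N-cadherin contacts replace each other.

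Of 31392 genes compared, 6930 (22.1%) lay 2-fold or more above MEF in ESC and 5189 (16.5%) lay 2-fold or more below. Both shares are the background for the counts of every list below. At 4-fold the counts were 2693 higher (8.58%) and 2078 lower (6.62%), and the median over all genes was 0.11. At a threshold of 32-fold, 365 genes were higher and 111 lower, at 256-fold 62 and 3, and at 1024-fold 16 and 0. Lower bounds, for genes well above background on only 1 of the arrays, made up 30 of the 62 genes at 256-fold. The balance at 2-fold depended on the scaling. Of the genes counted as different, 57.2% were higher with the 75th percentile of all spots, 67.9% with the percentile over probes detected on all arrays, 68.3% with housekeeping genes, 32.2% with spike-in probes and 36.2% without scaling. Spike-in scaling moved the median of all genes by -0.50 and housekeeping scaling by 0.25, so differences smaller than these shifts have no settled direction.

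**Figure D1:**
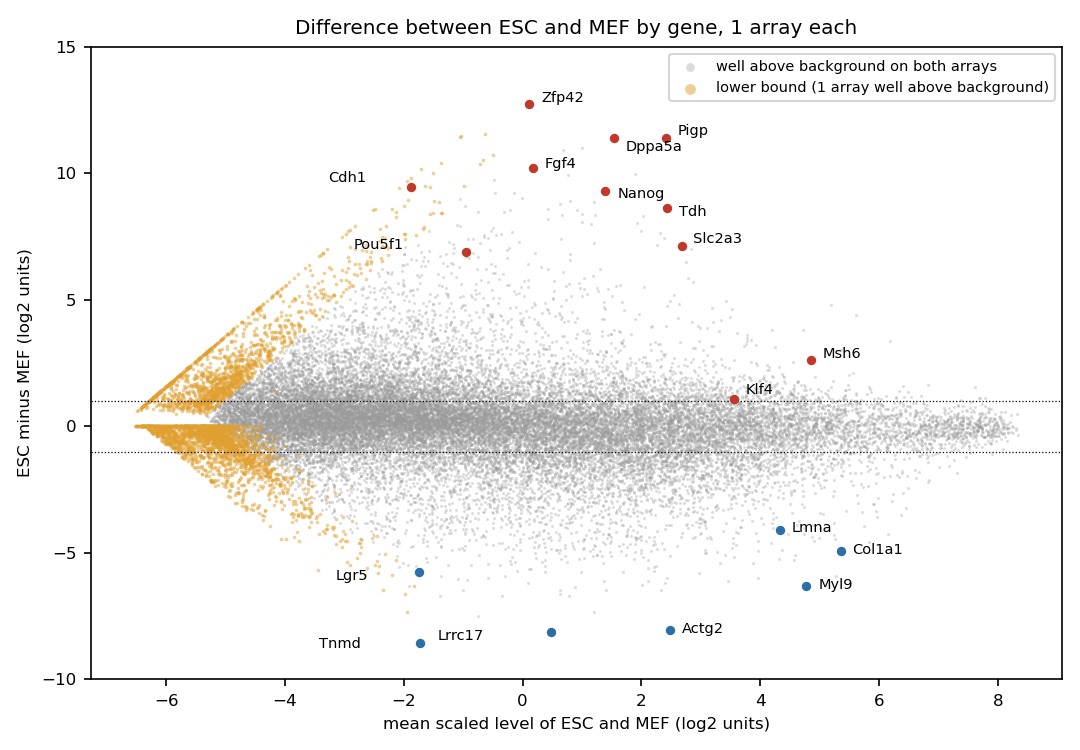
Each point is 1 gene, with the mean scaled level of the ESC and MEF arrays on the x axis and ESC minus MEF on the y axis, both in log2 units; orange points are lower bounds, named genes are red (higher in ESC) or blue (lower), and dotted lines mark 2-fold. The points above 8 outnumber those below -8, and the upper edge is reached by Zfp42 at 12.74 or higher, Pigp at 11.41 and Dppa5a at 11.40, against Tnmd at -8.59 or lower and Lrrc17 at -8.14 at the lower edge. Another detected probe of Pigp was at -1.17.

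The labels were checked against defining markers. All 12 ESC markers were at least 2-fold higher on the ESC array, with a summed signal of 773869 in ESC and 3373 in MEF. All 14 MEF markers were at least 2-fold lower, with 159710 in ESC and 2796340 in MEF. Of the ESC markers, 8 were well above background in MEF, whereas all 14 MEF markers were so in ESC. That call reaches low signals, down to 34.0 in MEF and 35.2 in ESC. A stricter cut set by the ERCC control probes was 267 in MEF and 255 in ESC. Pou5f1, Nanog, Dppa5a, Fbxo15, Fgf4 and Tdgf1 in MEF lay below it, but Esrrb and Utf1 did not. Twist1 and Lum lay below it in ESC. Among the MEF markers, Fn1, which encodes fibronectin, had a signal of 58563 in ESC and 308654 in MEF, and Vim, which encodes vimentin, had 37403 in ESC and 473808 in MEF. Thy1, a surface marker of fibroblasts, had 17861 in ESC and 368030.2 in MEF. Whether fibroblast RNA contributed to the ESC sample was not tested.

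Genes of the pluripotent state had the highest medians of the 58 lists compared, with lower bounds included. Of 24 pluripotency factors, 23 exceeded 2-fold in favour of ESC and 0 in favour of MEF (median 6.88), with 9 of the values lower bounds. With detection above the ERCC control probes the counts were the same and the median was 5.19. Zfp42 (Rex1), a zinc finger factor used as a marker of undifferentiated cells, had a signal of 172198 in ESC and 15.6 in MEF, where it was not well above background, so that its difference was 12.74 or higher. Nanog had 86762 in ESC and 183 in MEF, a difference of 9.32, although another detected probe of it had the opposite sign. Sox2 had 17743 in ESC and 14.8 in MEF, where it was not well above background. Pou5f1 had 7401 in ESC and 83.5 in MEF, a difference of 6.90. The factors used for reprogramming were not alike: Klf4 had 22352 in ESC and 14374 in MEF, a difference of 1.07, close to the 2-fold line, and Myc had 1369.8 in ESC and 7299 in MEF, a difference of -1.98. MEF carried signals well above background for Klf4 and Myc and, at 83.5, for Pou5f1, but not for Sox2.

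The promoters of Nanog and Zfp42 are shown because they hold motifs of the factors of this list. RefSeq's promoter table of the GRCm38.p6 build held 14 of the 24 factors. The 250 bases before the start were searched on both strands for the octamer ATGCAAAT, bound by factors of the POU family such as Oct4, and for the Oct-Sox motif, a joint site of both kinds of factor. Nanog was the only one of these genes to hold the joint site, which stands in 0.0731% of all 32851 promoter windows. Zfp42 was the only one to hold the octamer, found in 1.6% of all windows. The pluripotency marker, collagen and actomyosin lists also had 1 gene each with the octamer. In the actomyosin list that gene is Srf, whose window below leaves the octamer unmarked. The matches of Nanog and Zfp42 lie on the strand opposite to the gene, and capitals mark them below. A match describes the letters and does not show binding.
Nanog, GRCm38.p6, chr6:122707239-122707488, plus strand: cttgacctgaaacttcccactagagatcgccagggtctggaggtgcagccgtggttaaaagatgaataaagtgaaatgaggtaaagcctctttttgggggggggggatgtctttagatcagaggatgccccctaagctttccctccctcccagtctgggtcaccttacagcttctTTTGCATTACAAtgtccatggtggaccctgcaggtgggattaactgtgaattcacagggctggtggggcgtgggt
Zfp42, GRCm38.p6, chr8:43307010-43307259, minus strand: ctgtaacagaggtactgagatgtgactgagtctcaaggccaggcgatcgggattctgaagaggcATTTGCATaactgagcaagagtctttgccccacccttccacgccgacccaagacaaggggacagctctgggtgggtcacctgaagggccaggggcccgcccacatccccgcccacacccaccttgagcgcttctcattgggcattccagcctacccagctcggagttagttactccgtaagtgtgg

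Of 21 genes listed as further pluripotency markers, 18 were higher and 1 lower (median 7.40). The list holds Pigp (11.41), a gene of GPI anchor synthesis whose other detected probe was at -1.17. With the brightest probe over ESC and MEF, 17 genes of the list were higher and 2 lower (median 6.33). Dppa5a, which encodes an RNA-binding protein of pluripotent cells, had 196685 in ESC and 98.5 in MEF. Its near-identical relative Dppa5b had 118276 in ESC and 78.7 in MEF, and the probes may share targets. Fbxo15, an F-box gene long used as a reporter of reprogramming, had 79667 in ESC and 80.8 in MEF, a difference of 10.38. The exception was Fut4, with 119 in ESC and 637 in MEF (-1.99). Of 15 genes of the primed epiblast, the state after implantation, 13 were also higher, among them Otx2 (5.49), Dnmt3b (5.57) and Zic2 (4.72), while Fgf5, the usual marker of that state, was -1.83. Of 21 genes of the 2-cell stage, 17 were higher and 0 lower. Zscan4e had 76404 in ESC and 12.5 in MEF, below detection, and Zscan4c had 37245 in ESC and 328 in MEF. The copies of Zscan4 are near-identical, and their probes cannot be assigned to single copies with certainty. For context, Zscan4c had 3739.7 in iPS-OSH and 2312 in iPS-J. Of 32 germline and piRNA genes, 26 were higher and 1 lower (median 3.72). Stra8, a gene induced at entry into meiosis, had 9387 in ESC and 36.5 in MEF, where it was not well above background, and Syce1, of the synaptonemal complex, had 9887 in ESC and 54.7 in MEF. Kit, the stem cell factor receptor, had 6790.4 in ESC and 68.5 in MEF, and Tdrd7 was the one member lower, at -2.25.

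Among genes outside the lists, the largest measured differences toward ESC included Tcf15, a bHLH factor, with 13730.3 in ESC and 44 in MEF (8.72). Trh, which encodes the precursor of thyrotropin-releasing hormone, had 95981 in ESC and 403 in MEF (8.33), and 25696 in iPS-OSH and 15766 in iPS-J. Upp1, a uridine phosphorylase, had 80454 in ESC and 414 in MEF (8.03), and Bex4 had 48162 in ESC and 192 in MEF (8.40). Ppp1r14d, an inhibitor of protein phosphatase 1, was not alike on the pluripotent arrays. Its signal was 70753 in ESC and 7.54 in MEF, where it was not well above background, and 449 in iPS-OSH and 374 in iPS-J. Rpl10l, a retrogene copy of a ribosomal protein gene, had 34538 in ESC and 10 in MEF, where it was also not well above background.

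Signalling genes differed by pathway and by member, and over all genes 22.1% were higher and 16.5% lower. Nodal, a ligand of the TGF-beta superfamily, acts in the early embryo through the co-receptor Cripto (Tdgf1), activin receptors and the factor Foxh1, and is held back by Lefty proteins. Of 20 genes of this pathway, 10 were at least 2-fold higher and 5 lower. Among ligands and their co-receptor, Nodal had a signal of 8848 in ESC and 685 in MEF (4.12), Gdf3 was higher by at least 9.69, and Tdgf1 had 23175 in ESC and 52.9 in MEF (9.21). The inhibitors were on the same side as the ligand, Lefty2 with 14938 in ESC and 427 in MEF (5.56) and Lefty1 with 21100.2 in ESC and 1519 in MEF (4.23). The receptors split, with Acvr2b at 4.71 and Acvr2a at -2.17, and so did the nuclear partners, with Foxh1 at 3.98 and the signal carrier Smad3 at -2.33. Furin, a protease that matures the Nodal precursor, had 1076 in ESC and 21889 in MEF (-3.91).

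Genes of the related TGF-beta pathway lay the other way. Of 19 measured, 15 were at least 2-fold lower in ESC and 0 higher (median -3.20). Among the ligands, Tgfb3 had 1234 in ESC and 58296 in MEF (-5.13), Tgfb2 was at -3.79, and Inhba, which forms activin A, had 2244 in ESC and 96142 in MEF (-4.99). Among the latent TGF-beta binding proteins, Ltbp2 was at -4.61, Ltbp1 at -3.86 and Ltbp4 at 0.91. The type 2 receptor Tgfbr2 had 1048 in ESC and 25055 in MEF (-4.15). BMP genes also lay mostly on the MEF side, with 23 of 32 lower and 2 higher. Among the antagonists, Fst, which encodes follistatin, had 959.8 in ESC and 18465 in MEF (-3.83). The ligand Bmp7 was the largest exception, with 1856 in ESC and 56.2 in MEF (5.48), while Bmp4 was at 0.29.

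LIF acts through the receptor chain Lifr and the shared chain gp130 (Il6st). Of 17 genes of this pathway, 6 were higher and 6 lower. Receptor chains and kinases lay on both sides. Il6st had 2683 in ESC and 26391 in MEF (-2.87), the kinases Jak1 and Jak2 were at -2.41 and -2.58, Stat3 was at -1.21 and Lifr at 0.99. The receptor chain Cntfr had 326 in ESC and 48.2 in MEF (3.19), and the kinase Tyk2, also more than 2-fold higher after scaling, had 867 in ESC and 475 in MEF. Osmr, the oncostatin M receptor chain, had 1151 in ESC and 35782 in MEF (-4.53). Among known targets, the feedback inhibitor Socs3 had 42149 in ESC and 15435 in MEF (1.88) and the kinases Pim3 and Pim1 were at 2.96 and 2.78. LIF in the ESC medium and cell type cannot be told apart here.

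FGF genes were divided by member, 10 of 31 higher and 10 lower. Among ligands, Fgf4, which ESC make and respond to, had 50713 in ESC and 58.2 in MEF (10.20). Fgf7, the keratinocyte growth factor of mesenchyme, had 761 in ESC and 23941 in MEF (-4.54). Fgf15 was higher by at least 5.64, and Fgf9 and Fgf2 lower, at -3.28 or lower and -1.98 or lower. Among receptors, Fgfr4 was at 3.94, and Fgfr1, with 9698 in ESC and 51700.1 in MEF, at -1.98. Targets and feedback genes lay on both sides: Etv5 was at 2.54 and Spry2 at 3.22, but Spry1 at -2.22, Egr1 at -1.83 and Dusp6 at -0.06.

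In the Wnt pathway, 12 of 45 genes were higher and 13 lower, against 22.1% and 16.5% of all genes. With housekeeping scaling the balance was 13 and 13. Receptors lay on both sides: Fzd10 was higher by at least 6.54 and Fzd9 by 3.48, while Fzd1 had 372 in ESC and 15001 in MEF (-4.90). The nuclear factor Tcf7 had 2294 in ESC and 47.2 in MEF (6.04), and Axin2, a target that feeds back on the pathway, was higher by at least 3.12. Lgr5, another target and an R-spondin receptor, had 52.4 in ESC and 3887 in MEF (-5.78). Wls, needed to secrete Wnt ligands, was at -4.71. In the Hedgehog pathway the factor Gli1 was at 4.32 and the receptor Ptch1 at 1.57, both known targets, while the signal transducer Smo was at -2.34 and the co-receptor Gas1 at -3.90. Another detected probe of Gli1 and of Gas1 had the opposite sign. Among insulin-like growth factor genes, 9 of 18 were lower and 2 higher. Igfbp2, a binding protein, had 78246 in ESC and 3364 in MEF (4.97). The ligand Igf2 had 411 in ESC and 10259.9 in MEF (-4.21), Pappa, a protease that frees the ligand, was at -5.72, and Igfbp7 at -6.07. Of 37 other receptor kinase genes and their ligands 20 were lower and 3 higher. The lower ones included Csf1 (-4.74), Pdgfc (-4.73) and Pdgfrb (-4.64), while Ngfr had 4968 in ESC and 352 in MEF (4.25).

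**Figure D2:**
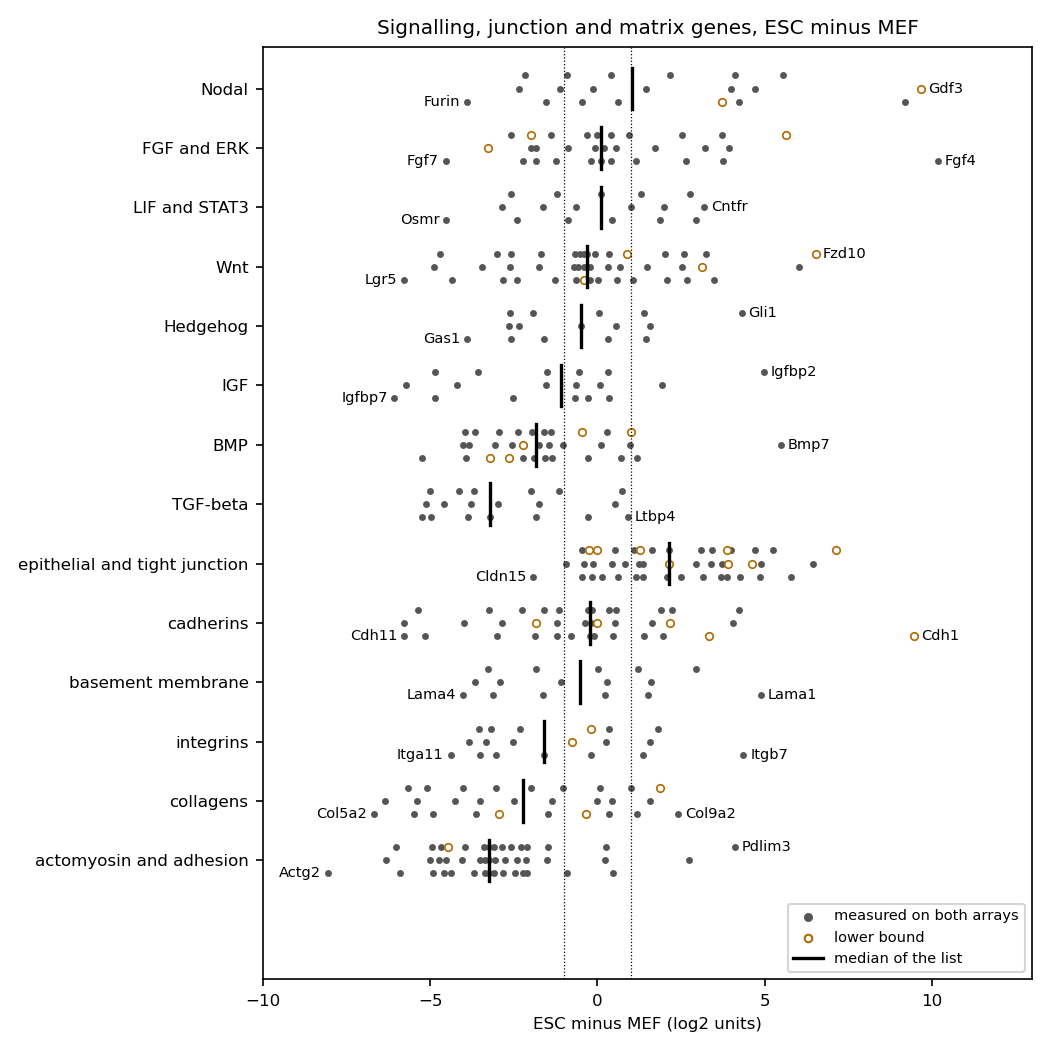
Each row is a gene list and each point 1 gene, placed by ESC minus MEF in log2 units; open points are lower bounds, black bars the medians of the lists, and dotted lines mark 2-fold. Nodal genes spread between Furin at -3.91 and Gdf3 at 9.69 or higher, whereas TGF-beta genes end at Ltbp4 with 0.91 and nearly all actomyosin genes lie to the left, down to Actg2 at -8.06.

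Chromatin regulators were compared by complex, against 22.1% higher and 16.5% lower over all genes. Of 11 genes of Polycomb complex 2, which methylates lysine 27 of histone H3, 5 were higher and 0 lower. The accessory subunits differed among themselves, Mtf2 with 35333 in ESC and 2459 in MEF (4.28) and Jarid2 with 12088 in ESC and 1203 in MEF (3.76), but Phf1, Aebp2 and Phf19 at -0.78, -0.14 and -0.01. The core subunits Suz12, Eed and Ezh2 were at 2.01, 1.64 and 0.86. Of 22 genes of Polycomb complex 1, 5 were higher, near the share over all genes, and 9 lower. Phc1 was at 3.40 and Pcgf6 at 2.96, against Cbx8 at -3.28 and Bmi1 at -2.76. The split of 5 and 9 became 8 and 8 with housekeeping scaling. In the BAF remodelling complex, 15 of 23 genes lay within 2-fold, 2 were higher (Smarcd1 at 2.08 and Actl6a at 1.77) and 6 lower. Smarca2, which encodes the ATPase that alternates with Brg1, was at -3.39, and Smarcd3 at -2.41. Smarcc1 had 10197 in ESC and 116250.5 in MEF (-3.08), but its 3 other detected probes had the opposite sign. Of 41 histone modifiers and related proteins 14 were higher and 3 lower, led by Morc1, a silencing factor of germ cells, with 15639 in ESC and 135 in MEF (7.29). With spike-in scaling the split was 8 higher and 9 lower. In DNA methylation, the de novo enzyme Dnmt3b, its cofactor Dnmt3l and the oxidase Tet1 were at 5.57, 5.53 and 5.16. Dnmt3a and Dnmt1 were at 0.12 and 0.55, and Mbd2, a reader of methylated DNA, was at -2.84.

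In the nuclear lamina, the lamin genes Lmna and Lmnb1 lay on opposite sides. Lmna, which encodes lamins A and C, had 6356 in ESC and 147053 in MEF (-4.10). Lmnb1, which encodes lamin B1, had 12355 in ESC and 3631 in MEF (2.20), and Lbr, the lamin B receptor, had 14753 in ESC and 6103 in MEF (1.71). Lmnb2 was at -0.38, and the inner membrane protein emerin (Emd) at -1.56.

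RNA regulators of early development came next. Lin28a and Lin28b, which block the maturation of let-7 miRNAs, had 13045 and 3359.5 in ESC and 1393 and 168 in MEF, differences of 3.66 and 4.76. Trim71, itself a let-7 target, had 9144 in ESC and 426 in MEF (4.86). The miRNA processing enzymes Dicer1, Drosha and Dgcr8 were at 0.87, 0.44 and -0.46. Among splicing regulators, the muscleblind genes, which repress ESC patterns of exon use, were at least 2-fold lower. Mbnl1 had 356 in ESC and 14326 in MEF (-4.90), Mbnl2 had 3049.7 in ESC and 41577 in MEF (-3.34), and Mbnl3 was at -3.11. The other detected probe of Mbnl1 and of Mbnl3 had the opposite sign. Celf2 was at -3.17, the epithelial regulators Esrp2 and Esrp1 at 1.20 and 0.85, and the general regulators Ptbp1 and Qk at 0.05 and 0.02.

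Proliferation genes differed by step. Of 43 genes of DNA replication and repair, 29 were at least 2-fold higher in ESC and 0 lower (median 1.35), against 22.1% and 16.5% of all genes. Msh6, of mismatch repair, had 93494 in ESC and 20593 in MEF (2.62). Orc1 and Cdt1, which license replication origins, were at 2.90 and 2.42, and Blm, Brca1 and Fancd2, of recombination and crosslink repair, at 2.72, 2.49 and 2.47. Atm, the kinase that responds to double-strand breaks, was at -0.56, and Chek1 at 0.05. Under spike-in scaling the list had 18 higher and 1 lower. Of 37 genes of cell cycle control, 11 were lower and 3 higher, but 8 higher and 10 lower with housekeeping scaling. The lower ones included D-type cyclins and kinase inhibitors of the G1 phase: Ccnd2 had 2810.0 in ESC and 53172 in MEF (-3.81), Ccnd1 had 7013 in ESC and 61433 in MEF (-2.70), Cdkn2b had 1064 in ESC and 29804 in MEF (-4.37), and Cdkn1a (p21) was at -2.66. Mybl2, a transcription factor of proliferating cells, had 130137 in ESC and 12442 in MEF (3.82), and Ccne1 was at 0.92. Of 15 telomere genes 6 were higher and 1 lower, against 11 higher and 1 lower with housekeeping scaling and 3 higher and 1 lower with spike-in scaling. The catalytic subunit Tert had 1205 in ESC and 228 in MEF (2.84), and the shelterin gene Terf1 was at 2.15. Of 35 apoptosis genes 15 were lower, among them the death receptor genes Tnfrsf1a (-3.89) and Fas (-2.26) and Casp8 (-2.84), while Hrk, a BH3-only activator of cell death, was at 4.51 or higher.

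**Figure D3:**
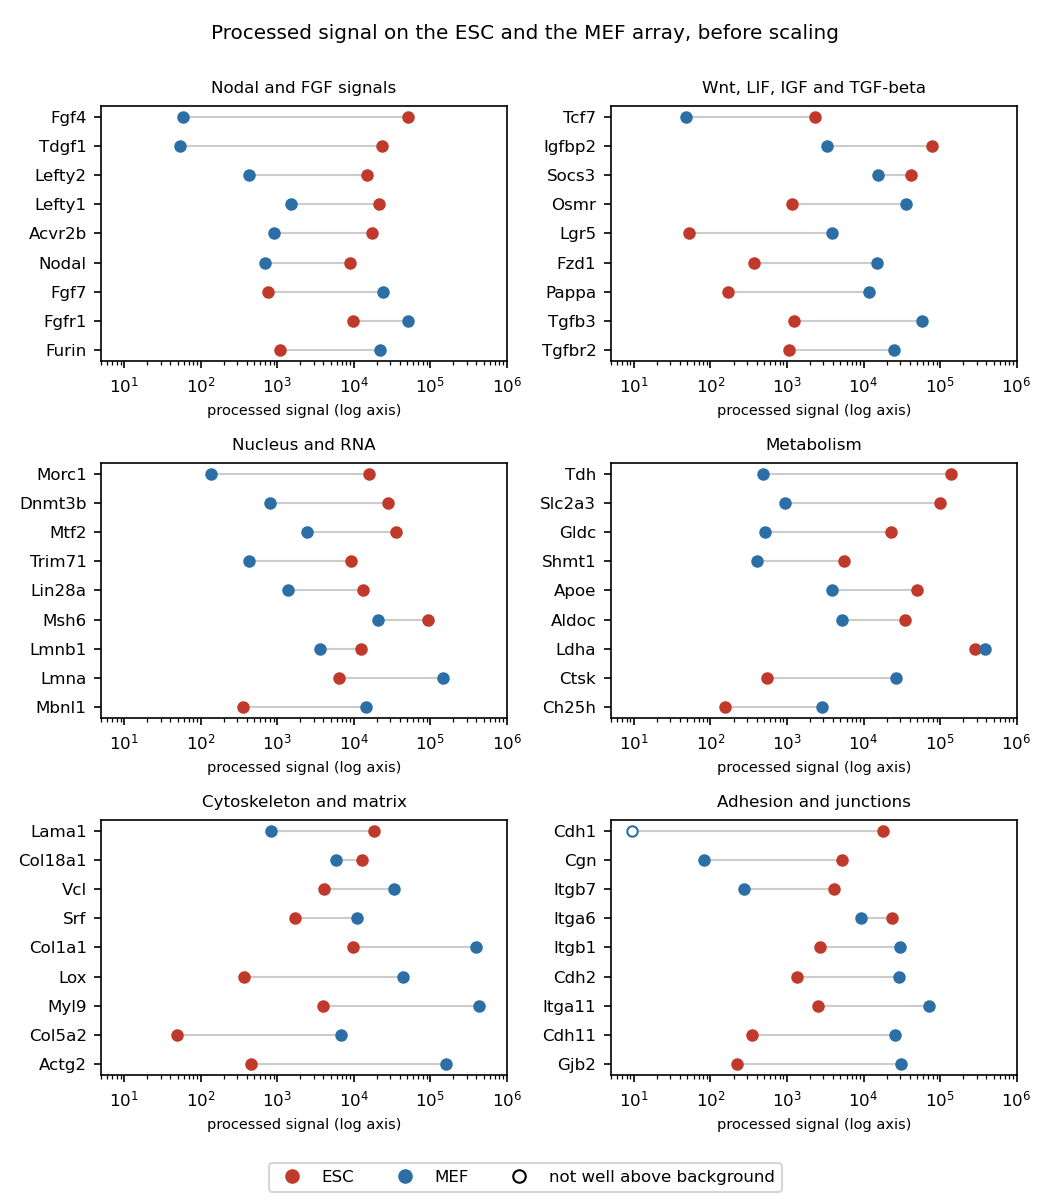
Processed signals of selected genes before scaling, on a log axis, red for the ESC array and blue for the MEF array; open circles are not well above background. Among genes detected on both arrays, Fgf4 lies far apart, at 50713 in ESC and 58.2 in MEF, and the gap nearly closes at Ldha, at 289660.1 in ESC and 382014 in MEF.

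In metabolism, genes of glycine and threonine use were among the higher ones. Tdh, the threonine dehydrogenase on which mouse ESC depend, had 140050.0 in ESC and 479 in MEF (8.62). The glycine cleavage genes Gldc and Amt were at 5.92 and 2.64, Gldc with 23086 in ESC and 513 in MEF, and Shmt1, which joins serine, glycine and folate, was at 4.21. The serine synthesis genes Phgdh, Psat1 and Psph were at -0.89, -0.91 and -0.81. In all, 10 of 26 genes of the list were higher and 1 lower, and 6 higher and 7 lower with spike-in scaling. In glycolysis, 8 of 28 genes were higher and 3 lower, near the shares of 22.1% and 16.5% over all genes, and 6 higher and 5 lower with spike-in scaling. The glucose transporter Slc2a3 had 99057 in ESC and 950.5 in MEF (7.14), Aldoc had 35311 in ESC and 5249.7 in MEF (3.18), and Ldhb was at 2.33, while Ldha and Gapdh were at 0.03 and -0.26. Hk2 was at 1.16 and Hk1 at -1.10. Of 34 lysosome genes 20 were lower and 2 higher, among them the proteases Ctsk, with 555 in ESC and 26447 in MEF (-5.14), and Ctss (-3.68), whereas Tfeb, a regulator of lysosome genes, was at 2.01. Of 25 sterol genes 12 were lower and 2 higher: the synthesis genes Sc5d, Cyp51 and Sqle were at -3.10, -2.45 and -1.95, and the export genes Apoe and Abcg1 at 4.11 and 2.50.

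Genes of the contractile and adhesive apparatus of fibroblasts were lower in ESC for the most part. Of 45 actomyosin and focal adhesion genes, 39 were at least 2-fold lower in ESC and 2 higher (median -3.23), with a summed signal of 455778 in ESC and 5776000 in MEF. Actg2, the enteric smooth muscle actin, had 448 in ESC and 161646 in MEF (-8.06), and Acta2, the actin of myofibroblasts, had 6556 in ESC and 531793 in MEF (-5.91). Myl9, the regulatory light chain of smooth muscle myosin, had 4002 in ESC and 431329 in MEF (-6.32), and calponin 1 (Cnn1) had 2519 in ESC and 220653 in MEF (-6.02). The focal adhesion genes Zyx and Parva were at -4.91 and -4.96. The exceptions were Pdlim3, with 2885 in ESC and 224 in MEF (4.12), and Synm (2.73), while Des was at 0.24. Actb, the cytoplasmic actin, was at -0.89.

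Many promoters of contractile genes carry the CArG box, a motif of 10 bases bound by the serum response factor Srf. In the 250 bases before the start, read on both strands (the motif is its own reverse complement), 7 of the 37 actomyosin genes found in the promoter table held one, in 8 of 49 windows (16.3%), against 1.47% of all windows. They were Myl9 (-6.32), Fhl2 (-5.02), Cnn2 (-4.69), Fhl1 (-3.09), Vcl (-2.60), Srf itself (-2.28) and Myl6 (-2.22), all at least 2-fold lower in ESC, as were 39 of the 45 genes of the list. Cnn2, Fhl1, Vcl, Srf and Myl6 were named after their values were seen, for the motif. The list was chosen from general knowledge of contractile genes and holds Srf itself. The shares of windows with a box are therefore a description, and their difference was not tested. Srf had 1693 in ESC and 11129 in MEF, and vinculin (Vcl) had 4068 in ESC and 33245 in MEF. The windows of Myl9, Vcl, Cnn2 and Srf follow with the boxes in capitals. The boxes of Vcl and Cnn2 have the same letters, and Srf holds 2.
Myl9, GRCm38.p6, chr2:156775214-156775463, plus strand: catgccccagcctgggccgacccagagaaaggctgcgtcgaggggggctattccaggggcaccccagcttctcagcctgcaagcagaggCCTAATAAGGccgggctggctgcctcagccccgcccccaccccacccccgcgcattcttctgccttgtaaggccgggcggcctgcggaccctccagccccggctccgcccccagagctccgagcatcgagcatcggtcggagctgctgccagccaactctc
Vcl, GRCm38.p6, chr14:20929148-20929397, plus strand: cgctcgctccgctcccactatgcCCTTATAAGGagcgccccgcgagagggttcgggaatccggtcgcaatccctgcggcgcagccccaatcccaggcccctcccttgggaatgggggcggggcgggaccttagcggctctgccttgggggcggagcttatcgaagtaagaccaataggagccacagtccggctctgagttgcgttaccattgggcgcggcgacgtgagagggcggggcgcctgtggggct
Cnn2, GRCm38.p6, chr10:79988350-79988599, plus strand: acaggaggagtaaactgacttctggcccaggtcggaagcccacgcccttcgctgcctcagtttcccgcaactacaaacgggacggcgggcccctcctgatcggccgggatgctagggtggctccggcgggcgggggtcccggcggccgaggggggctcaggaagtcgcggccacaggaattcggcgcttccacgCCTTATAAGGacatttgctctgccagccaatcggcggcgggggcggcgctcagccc
Srf, GRCm38.p6, chr17:46556163-46556412, minus strand: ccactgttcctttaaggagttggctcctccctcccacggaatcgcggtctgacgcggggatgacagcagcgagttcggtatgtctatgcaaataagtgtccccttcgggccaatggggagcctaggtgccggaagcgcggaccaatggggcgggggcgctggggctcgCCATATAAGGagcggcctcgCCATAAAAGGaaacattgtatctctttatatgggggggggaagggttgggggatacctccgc

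Matrix genes of fibroblasts and the genes of enzymes that finish the matrix were mostly lower. Of 28 collagen genes 18 were lower and 4 higher. Col5a2 and Col5a1, which set the width of collagen fibrils, were at -6.70 and -5.10, and Col1a1 had 9644 in ESC and 398046 in MEF (-4.93). Col18a1, a basement membrane collagen, had 12976 in ESC and 5932 in MEF (1.56), and Col9a2 was at 2.41. Of 28 collagen processing genes 26 were lower and 0 higher. The crosslinking oxidase Lox had 365 in ESC and 43866 in MEF (-6.48), its relatives Loxl3 and Loxl1 were at -5.26 and -4.46, and the collagen chaperone Serpinh1 had 8593 in ESC and 189989 in MEF (-4.03). Plod2 and P3h2, hydroxylases of lysine and proline, were at -0.68 and 0.54. Elastic fibre genes were lower in 12 of 17 cases, with Fbln5 at -6.48 and Fbn1 at -5.52 but Mmrn2 at 4.31. Matricellular genes were lower in 17 of 21, with Smoc2, 235 in ESC and 51826 in MEF, at -7.35 and its relative Smoc1, 2103 in ESC and 293 in MEF, at 3.27. Of 28 proteoglycan genes 20 were lower, among them Ogn (-6.19) and Aspn (-6.01), and of 37 matrix protease genes and inhibitors 25, among them Timp3 (-4.89), Mmp14 (-4.33) and Plau (-4.63 or lower).

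Basement membrane and integrin genes lay on both sides. Lama1, the laminin chain of the early embryo, had 18331 in ESC and 831 in MEF (4.90), and Lama5 had 9578 in ESC and 1682 in MEF (2.94). Lama4 and Lama2, chains of mesenchymal tissue, were at -4.03 and -3.67, and the type IV collagens Col4a1 and Col4a2 at -3.12 and -3.28. Among integrins, Itga6, a laminin receptor chain, had 23858 in ESC and 9205 in MEF (1.81), although its other detected probe had the opposite sign, and Itgb7 was at 4.37. The collagen receptor chain Itga11 had 2526 in ESC and 71798 in MEF (-4.40), Itga1 was at -3.52, the fibronectin receptor chain Itga5 at -3.55, and Itgb1, the partner of many chains, had 2738 in ESC and 30134 in MEF (-3.03).

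Genes of cell contacts also divided by type. E-cadherin (Cdh1) had 17970.4 in ESC and 9.56 in MEF, where it was not well above background, a difference of at least 9.48. N-cadherin (Cdh2) had 1365 in ESC and 29164 in MEF (-3.98), and Cdh11, the cadherin of fibroblasts and bone, had 347 in ESC and 25736 in MEF (-5.78). Among protocadherins, Pcdh18, Pcdh7 and Pcdh19 were at -5.78, -5.37 and -5.17, and Pcdh8 was higher by at least 3.34. Of 45 epithelial and tight junction genes 31 were higher and 1 lower (median 2.13). Cgn, which encodes cingulin, had 5274 in ESC and 81.9 in MEF (6.44). The protease inhibitors Spint2 and Spint1 were at 5.80 and 5.26, and the grainyhead factors Grhl3, Grhl2 and Grhl1 at 4.89, 4.86 and 4.62 or higher. Another detected probe of Grhl2 had the opposite sign, close to 0. Tjp1 (ZO-1) was at 0.13 and Cldn15 at -1.92. Of 14 gap junction genes 10 lay within 2-fold, with Gja1 at -0.29, and Gjb2 had 219.5 in ESC and 30951 in MEF (-6.71).

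Of 36 Hox genes, which record position along the body axis, 27 were at least 2-fold lower in ESC and 0 higher. Hoxc6 had 979 in ESC and 27125 in MEF (-4.36) and Hoxa7 had 376 in ESC and 11005 in MEF (-4.44), while Hoxa9, Hoxa4 and Hoxd1 were at 0.12, 0.13 and 0.14. Of 53 mesenchymal transcription factors 41 were lower and 2 higher. Ebf3 had 68.5 in ESC and 8313 in MEF (-6.49), Tbx15 was at -5.92, Twist2 at -4.77 and Osr1 at -6.03, and Hand1 was the larger of the exceptions, higher by at least 3.89. Guidance genes were lower in 18 of 39 cases, with the receptors Epha3 and Nrp1 at -6.30 and -5.50 and the ligand Slit2 at -4.72, against Efnb3 at 2.72.

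Immune genes differed by list, and over all genes 22.1% were higher and 16.5% lower. Of 42 interferon pathway genes 24 were lower and 3 higher. The sensor genes had the lowest values, Sting1 with 799 in ESC and 22511 in MEF (-4.38) and Ifih1 at -4.09, and the receptor chains Ifngr2, Ifngr1 and Ifnar2 were at -2.98, -2.47 and -2.14. Ifitm1 was the large exception, with 46016 in ESC and 1696 in MEF (5.20). In antigen presentation, 8 of 23 genes were higher and 6 lower (3 higher and 10 lower with spike-in scaling). B2m, the light chain of class I molecules, had 7271 in ESC and 117083 in MEF (-3.58), the peptide transporter chains Tap1 and Tap2 were at -0.87 and -1.73, and the heavy chain H2-D1 at -1.45. These genes vary between mouse strains, and strain cannot be told apart from cell type. The class II genes H2-Eb1, H2-Ab1 and Cd74 were at 2.91, 1.80 and 1.94. Of 40 chemokine, cytokine and complement genes 23 were lower and 5 higher, led by the interleukin-33 receptor Il1rl1, with 405 in ESC and 37696 in MEF (-6.11), and by Cxcl12 (-6.01). Markers of macrophages lay on the same side in part. Tyrobp had 119 in ESC and 3104 in MEF (-4.27), and Lyz2 and Csf1r were at -2.74 and -1.39. Itgam was at -2.68, but other detected probes of it had the opposite sign. Adgre1 and Ptprc (CD45), which defines blood cells, were at -0.95 and -0.12. Over the 20 blood and endothelial genes compared, 9 were higher and 7 lower (7 higher and 9 lower with spike-in scaling). The summed signal of the 22 genes of this list on the array was 46521 in ESC and 87265 in MEF. The part of such cells in the immune differences was not tested.

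Imprinted genes, expressed from 1 parental allele, lay lower for 17 of 33 members and higher for 4. The lower ones included Dlk1, a Notch-related ligand, with 2145 in ESC and 59869 in MEF (-4.37) and Igf2, given above, while Grb10, an inhibitor of growth signalling, was at -3.99. Phlda2, which restrains placental growth, had 1997 in ESC and 12.7 in MEF, where it was not well above background (at least 6.31), Ascl2 was at 4.19 and Snrpn at 2.80. Among X-linked genes, the homeobox gene Rhox5 had 105501 in ESC and 1100.2 in MEF (7.02). Xist, the RNA that coats the inactive X of female cells, had 9.08 in ESC, not well above background, and 476 in MEF, a difference of -3.33 or lower. The Y-linked genes Ddx3y and Eif2s3y were well above background on both arrays, with 2486 and 5543 in ESC and 5787 and 6510.2 in MEF.

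Markers of other cell types lay on both sides, against 22.1% higher and 16.5% lower over all genes. Of 16 trophoblast genes 11 were higher in ESC and 2 lower, with Tfap2c at 7.56 and Esx1 higher by at least 5.18. Of the defining genes, Elf5 and Gata3 were at 0.28 and -1.73. Cdx2 had a dim signal of 103 in ESC and 14.1 in MEF, where it was not well above background. Of 18 endoderm genes 10 were higher and 4 lower, with Hnf4a at 4.68, Cubn at 3.03 and Gata6 at -0.75, and with summed signals of 142903 in ESC and 601711 in MEF. Of 16 neural genes 7 were higher and 4 lower, a split that was even, 4 and 4, with spike-in scaling, with Foxd3 higher by at least 4.51 and S100b at -5.87 or lower. Among 23 muscle, cartilage and fat genes 4 were higher and 7 lower. Tnmd, a marker of tendon, had 11.6 in ESC, not well above background, and 18279.7 in MEF, and Myh3, embryonic myosin, had 4203 in ESC and 60.5 in MEF (6.55). Of 20 housekeeping genes, 15 lay within 2-fold (median -0.26), with Hprt at 0.37 and Tbp at 0.24, while 4 were lower, B2m among them, and 1 higher.

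**Figure D4:**
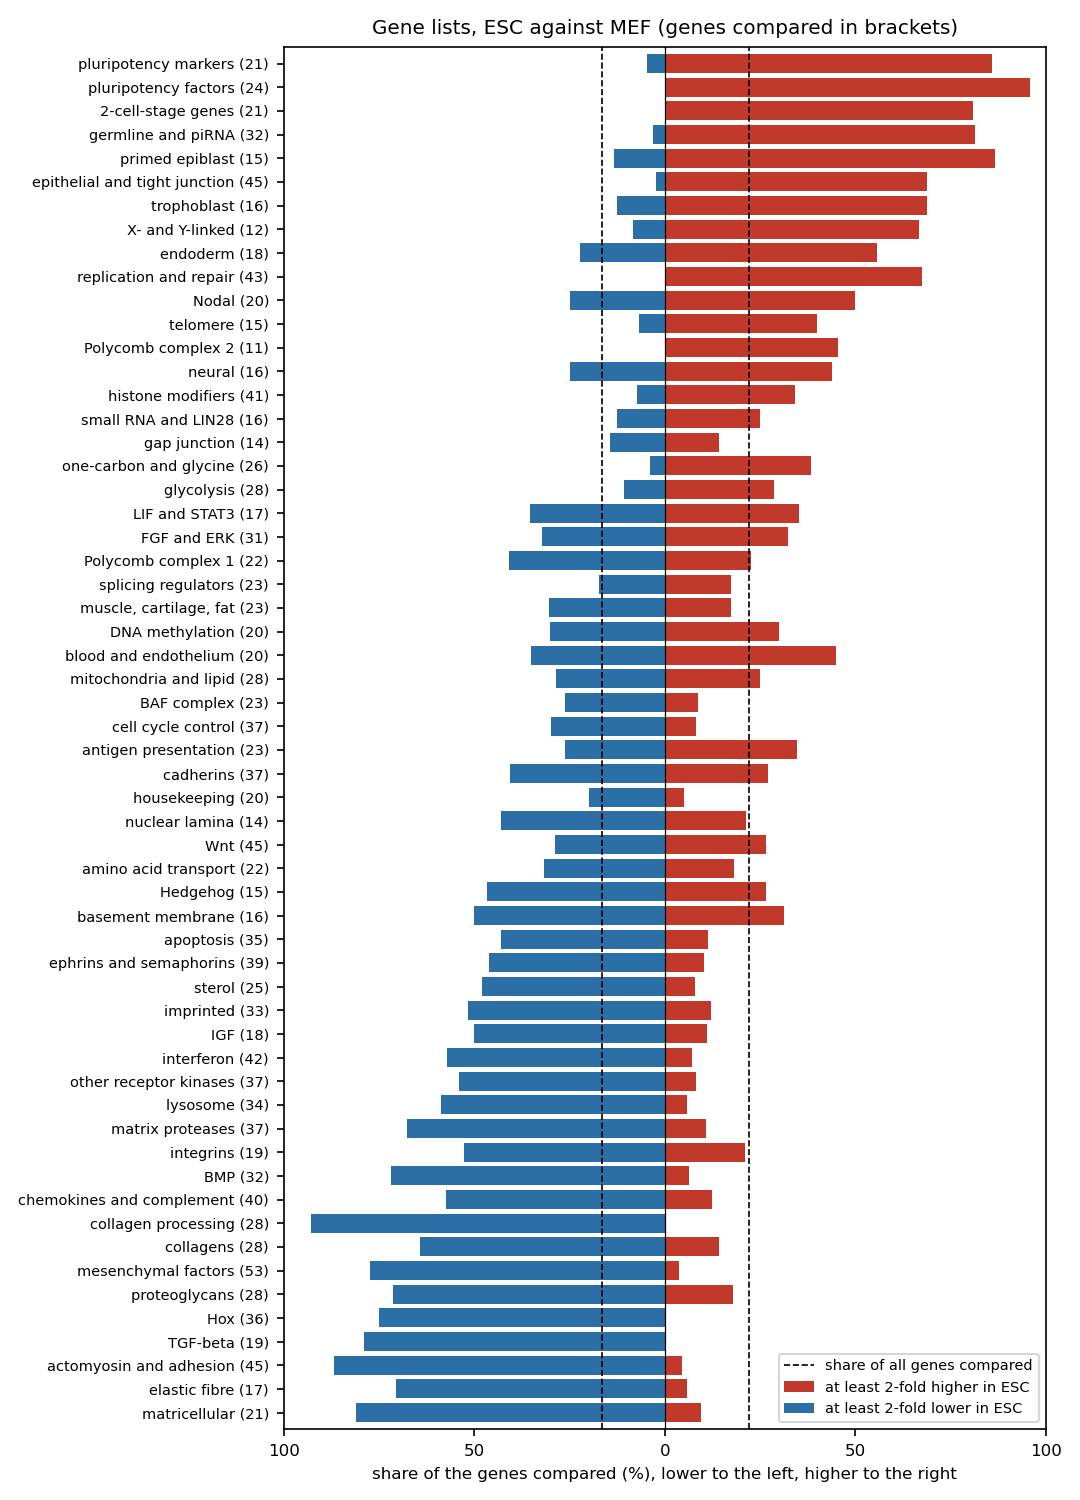
For 58 gene lists, bars give the share of the genes compared (percent, number of genes in brackets) that were at least 2-fold higher in ESC, to the right, or at least 2-fold lower, to the left; dashed lines mark the shares over all genes, 22.1% and 16.5%. Lists at the top, such as the pluripotency factors, lie almost wholly to the right, and the matrix, actomyosin, TGF-beta and Hox lists at the foot to the left.

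Probes of the same gene could differ. Of 9377 genes with several detected probes, 553 had probes that differed at least 2-fold in both directions. Nanog was among them. The probe used (mm9 chromosome 6, positions 122664590 to 122664649) had 86762 in ESC and 183 in MEF, and the other (positions 122663676 to 122663735), 171 in ESC and 897 in MEF (-1.95). For Pigp, an enzyme subunit of GPI anchor synthesis, the probe with a difference of 11.41 lies at chromosome 16, positions 94580645 to 94580704, and a probe at positions 94586203 to 94586262 had 4851 in ESC and 14776 in MEF (-1.17). Zic1 was at 2.01 with the probe used and -6.00 with the other, which had 125 in ESC and 10810.0 in MEF. The direction of such a gene as a whole is uncertain. Among genes counted as different, 75.9% of the other detected probes had the sign of the probe used and 49.8% were also at least 2-fold different.

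**Figure D5:**
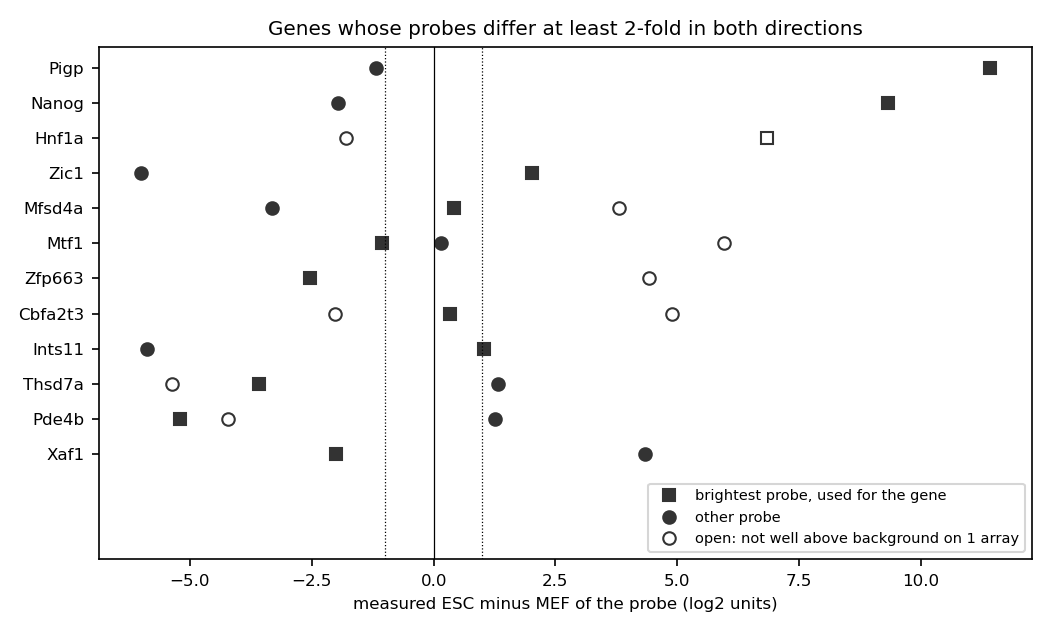
For the 12 genes with the widest spread between detected probes, each symbol is 1 probe, placed by its measured ESC minus MEF in log2 units; squares are the probes used for the gene, and open symbols were not well above background on 1 array. Nanog and Pigp each have a probe near 10 and another below -1, and the widest gaps lie there.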

How the data were processed

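Total RNA was amplified, labelled with Cy3 and hybridised to 1-colour arrays, per the labels' protocols. The deposited intensities were background-subtracted by Agilent Feature Extraction 10.5.1.1 within each array, and arrays were not normalized against each other, per the file headers. The deposited detrend surface, a ratio for each spot, had been applied to ESC and not to MEF, as the files show. On the ESC array this ratio ran from 0.581 to 1.17 over the spots that were not controls. Calls of spots well above background were used as deposited. The deposited value table matched the processed intensity within 0.497%.

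Outlying spots were left out. The log2 intensity was scaled to the 75th percentile of each array, and the probe brightest on average over the 4 arrays stood for its gene. A reference table named 26425 probes through their accession, 3988 through the symbol and 826 through a synonym, and 24442 kept the file's name. Genes were counted at 2-fold, with no test. The 58 gene lists, the members and the comparisons were chosen with earlier results of these data known. Of 1594 list memberships, 1578 were on the array. Named genes were the 8 largest differences in each direction and the 3 closest to 0 in each list, the largest over all genes, the widest probe disagreements and a fixed set of markers, and some genes that this rule takes are not reported here. Promoter sequences came from RefSeq (GRCm38.p6), and probe positions are mm9, without exon or UTR annotation. Normexp used limma 3.58.1. Steps were tested on simulated data.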

Additional observations from a re-analysis of the deposited data

How the results depend on the processing

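The single array per population sets the precision, and dim probes are the least certain. No paired analysis was possible because each population has a single array and the labels carry no replicate numbers to pair. Spike-in scaling gave 4187 genes higher and 8813 lower with a median of -0.39, and the deposited table without scaling gave 4549 and 8026 with a median of -0.30. The median was 0.35 with the percentile over probes detected on all arrays and 0.36 with housekeeping scaling. Detection above the ERCC control probes left 3925 genes higher and 3875 lower, and the 4-fold threshold 2693 higher and 2078 lower. Quantile normalization left 6299 higher and 6232 lower. Both settings of the multiplicative detrend were added after seeing the data: without it on all arrays 6909 genes were higher and 5314 lower, and with it on MEF too 6916 and 5253. Of 29 list medians beyond 2-fold, 0 turned their sign under the 14 alternatives that recompute values. Of 264 named genes counted as different, 5 turned under at least 1 of them. Alternatives that only rescale the arrays shift measured values alike by less than 2-fold, and requiring detection on both arrays changes no gene's value. They could not turn a gene counted as different, so they do not test its sign. With the median over probes, Itga6 was at -0.14, Itgam at 1.16, Smarcc1 at 0.71 and Zic1 at -1.99. With the brightest probe over ESC and MEF, Pigp was at -1.17 and Zic1 at -6.00, and with normexp background correction the gene Zic1 was at -5.18. These alternatives use other probes of those genes.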

Other observations

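Regions of long intergenic RNA were compared as a separate kind of probe. Of 4387 such regions, 21.7% were at least 2-fold higher in ESC and 9.12% lower. The 17679 genes with coding RefSeq accessions had 22.6% and 21.4%. Of the 487 genes with non-coding RefSeq accessions 14.6% were lower, and of the 8839 remaining genes 10.6%. A share of lower genes below that of coding genes was therefore not particular to the long intergenic RNA regions. With all genes split into 5 equal groups by brightness, 10.4% of the dimmest group and 22.2% of the brightest were lower. The part of brightness in the balance of the probe classes was not tested. By chromosome, 26.9% of the genes of chromosome 11 were higher and 14.0% lower, against 17.6% and 20.5% of those of chromosome 3.

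On the MEF side, genes outside the lists included Lrrc17, a secreted leucine-rich repeat protein, with 108 in ESC and 41278 in MEF (-8.14). Ptx3, a secreted pattern recognition protein, had 57.9 in ESC and 14141 in MEF (-7.50), and Acta1, the skeletal muscle actin, had 214 in ESC and 25813 in MEF (-6.48). The orphan receptor gene Gpr176 was at -6.64 and Ccdc80, a secreted matrix protein, at -6.28. Among bounds, the plexin gene Plxna4 had 21.3 in ESC, not well above background, and 4178 in MEF (-6.46 or lower).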
